A study of Homo sapiens with 21 samples.

Results

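The HSP70 and HSP110 chaperone family was followed in MDA-MB-453, a human breast cancer cell line, through 10 genes chosen by name from the 58735 genes measured. The choice was made with earlier results of these data known, so shares over all genes stand beside the counts of members as a description. By their textbook roles, HSPA6, HSPA1A, HSPA1B and HSPH1 were grouped as the inducible members. HSPA8, HSPA9 and HSPA4 were grouped as the constitutive members, and HSPA1L, HSPA2 and HSPA4L as the tissue-restricted members. All 10 members passed the filter on low values described under processing, which 14686 genes passed in all. HSPA6 passed it only through treated groups in which it was high.

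HSP70 proteins bind exposed hydrophobic stretches of unfolded or newly made proteins and release them in a cycle driven by ATP. J-domain proteins bring the client and start ATP hydrolysis, and nucleotide exchange factors, which include the HSP110 proteins HSPH1, HSPA4 and HSPA4L, reset the cycle. Under heat, heavy metals or other stress on protein folding, heat shock factor HSF1 is known to bind heat shock elements in promoters and to raise the inducible members. Steroid receptors are classical clients of the HSP70 and HSP90 machinery.

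RNA-seq was performed on 21 libraries, 3 for each of 7 groups: no treatment (control), 10 mM calcium, 10 μM cadmium, 5 μM GSK4716, 10 μM DES, and DES followed by either metal. The study used GSK4716 as an agonist and DES (diethylstilbestrol) as an antagonist of the estrogen-related receptor ESRRB, to ask which responses to the metals pass through that receptor. All groups were 1 cell line, kept before treatment in IMEM with 5% charcoal-stripped serum, and treatment lasted 24 h. Calcium and GSK4716 were given in medium without serum and cadmium in medium with 1% charcoal-stripped serum. In the combined groups DES was added 3 h ahead of the metal, so the time with DES may differ from that of DES alone. The medium of the control and of DES alone is not given in the sources used here, so medium and treatment cannot be told apart. Nothing in the labels says that replicates were separate cultures on separate days, so p-values measure the spread between these libraries.

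Values are FPKM, fragments scaled to gene length and library size. The gene length in the deposited values was 4849 bases for HSPA8, whose GENCODE transcript used here has 2264. For HSPA1A it was 2483 against 2400. This lowers the FPKM of HSPA8 beside that of HSPA1A, so levels of different genes can be set side by side only roughly. The gene totals ran from 14435925 to 28424805 fragments (median 18314738). The 6 luminal markers used (FOXA1, GATA3, SPDEF, KRT8, KRT18 and ERBB2) were present, with a summed level of 871 to 2370.5 FPKM over the groups. They did not move as a set. FOXA1 was at 147 to 179.6 FPKM in the control and 53.2 to 101 with DES, and GATA3 at 225 to 301 and 112 to 140.1. The keratins KRT8 and KRT18 were at 144 to 229.8 FPKM in the control and 393 to 726 with calcium. Of 6 markers of other cells, 5 (PTPRC, PECAM1, KRT5, KRT14 and ESR1) stayed at or under 0.699 FPKM in every library. COL1A1, a fibroblast collagen gene, made up nearly all of the summed level of this list. That sum ran from 10.5 to 12.1 FPKM in the control, from 9.80 to 12.0 with GSK4716, 14.1 to 17.2 with calcium, 9.99 to 15.3 with cadmium, 12.5 to 33.0 with DES, 9.54 to 16.8 with DES and calcium, and 10.3 to 28.8 with DES and cadmium. The part of these markers in the results below was not tested. The RNA was measured in bulk, where fewer cells of a kind and less RNA per cell cannot be told apart.

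The stretches before the RefSeq start sites (GRCh38.p14) are shown for the members called higher with DES whose windows held a match, because heat shock elements are built from repeats of the letters GAA and their reverse complement TTC. Capitals mark every match to GAANNTTC or TTCNNGAA, and to the longer GAANNTTCNNGAA or TTCNNGAANNTTC. The shorter forms are their own reverse complements and the longer forms are each other's, so both strands were searched, and the longer matches contain overlapping shorter matches. The HSPA6, HSPA1A and HSPA1B stretches end where the gene begins in the deposited table. Those of HSPA8 lie inside the gene as that table places it (chr11:123057489-123063230, minus strand), before the RefSeq start used here.
HSPA6 (chr1:161524290-161524539, plus strand): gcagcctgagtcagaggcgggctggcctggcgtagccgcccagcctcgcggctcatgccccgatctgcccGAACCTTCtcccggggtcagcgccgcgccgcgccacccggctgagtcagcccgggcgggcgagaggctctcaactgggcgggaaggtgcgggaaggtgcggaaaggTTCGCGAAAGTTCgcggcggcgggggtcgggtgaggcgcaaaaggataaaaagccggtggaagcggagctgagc
HSPA1A (chr6:31815293-31815463, plus strand): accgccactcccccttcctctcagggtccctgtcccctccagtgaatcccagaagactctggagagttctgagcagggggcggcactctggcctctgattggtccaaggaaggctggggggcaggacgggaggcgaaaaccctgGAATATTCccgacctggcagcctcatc
HSPA1B (chr6:31827488-31827734, plus strand): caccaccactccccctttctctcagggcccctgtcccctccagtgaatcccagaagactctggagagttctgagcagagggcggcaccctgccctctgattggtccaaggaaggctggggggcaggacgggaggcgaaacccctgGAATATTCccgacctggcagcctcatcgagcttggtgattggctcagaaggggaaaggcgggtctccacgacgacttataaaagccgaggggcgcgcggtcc
HSPA8, upstream match (chr11:123062346-123062374, minus strand): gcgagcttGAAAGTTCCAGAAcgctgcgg
HSPA8, downstream match (chr11:123062171-123062199, minus strand): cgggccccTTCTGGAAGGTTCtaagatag

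In the 250 bases before the start, HSPA6 held 3 matches to the shorter motif and 1 to the longer, and HSPA8, the main constitutive member, held 4 and 2. HSPA1A and HSPA1B each held 1 shorter match, 98 and 97 bases before the start, and their windows were identical at 93.6% of aligned positions. HSPA1L reads away from HSPA1A, and its single match is the same stretch of chromosome 6 seen from the other strand. HSPA4L held 1 shorter match in 1 of its 3 windows. HSPH1 is the single member called with DES that held no match. No match was found in the windows of HSPA9, HSPA4 and HSPA2. Over all 35116 windows of this length, 11.6% held the shorter motif and 0.441% the longer, and a match is a description of letters, not of binding.

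In control cells the constitutive HSPA8, the general cytosolic HSP70, was the most abundant member. Its FPKM was 295, 359.8 and 310.5 in the 3 control libraries. HSPA9, the mitochondrial HSP70, had a control mean of 37.2 ± 4.87 FPKM (SD, n = 3), HSPA1A of 35.9 ± 7.54, HSPA4 of 25.4 ± 1.59, HSPH1 of 19.8 ± 4.06 and HSPA1B of 16.4 ± 2.56. The tissue-restricted members were low. HSPA4L had a control mean of 1.97 ± 0.473 FPKM, HSPA1L, best known from testis, 0.973 ± 0.195, and HSPA2, known for its role in the making of sperm, 0.718 ± 0.0553. HSPA6, the strictly stress-inducible HSP70, was the lowest, at 0.248, 0.260 and 0.128 FPKM, values that rest on 19, 13 and 5 fragments. They lie under the 0.5 FPKM of the filter, which averages all 21 libraries.

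**Figure D1:**
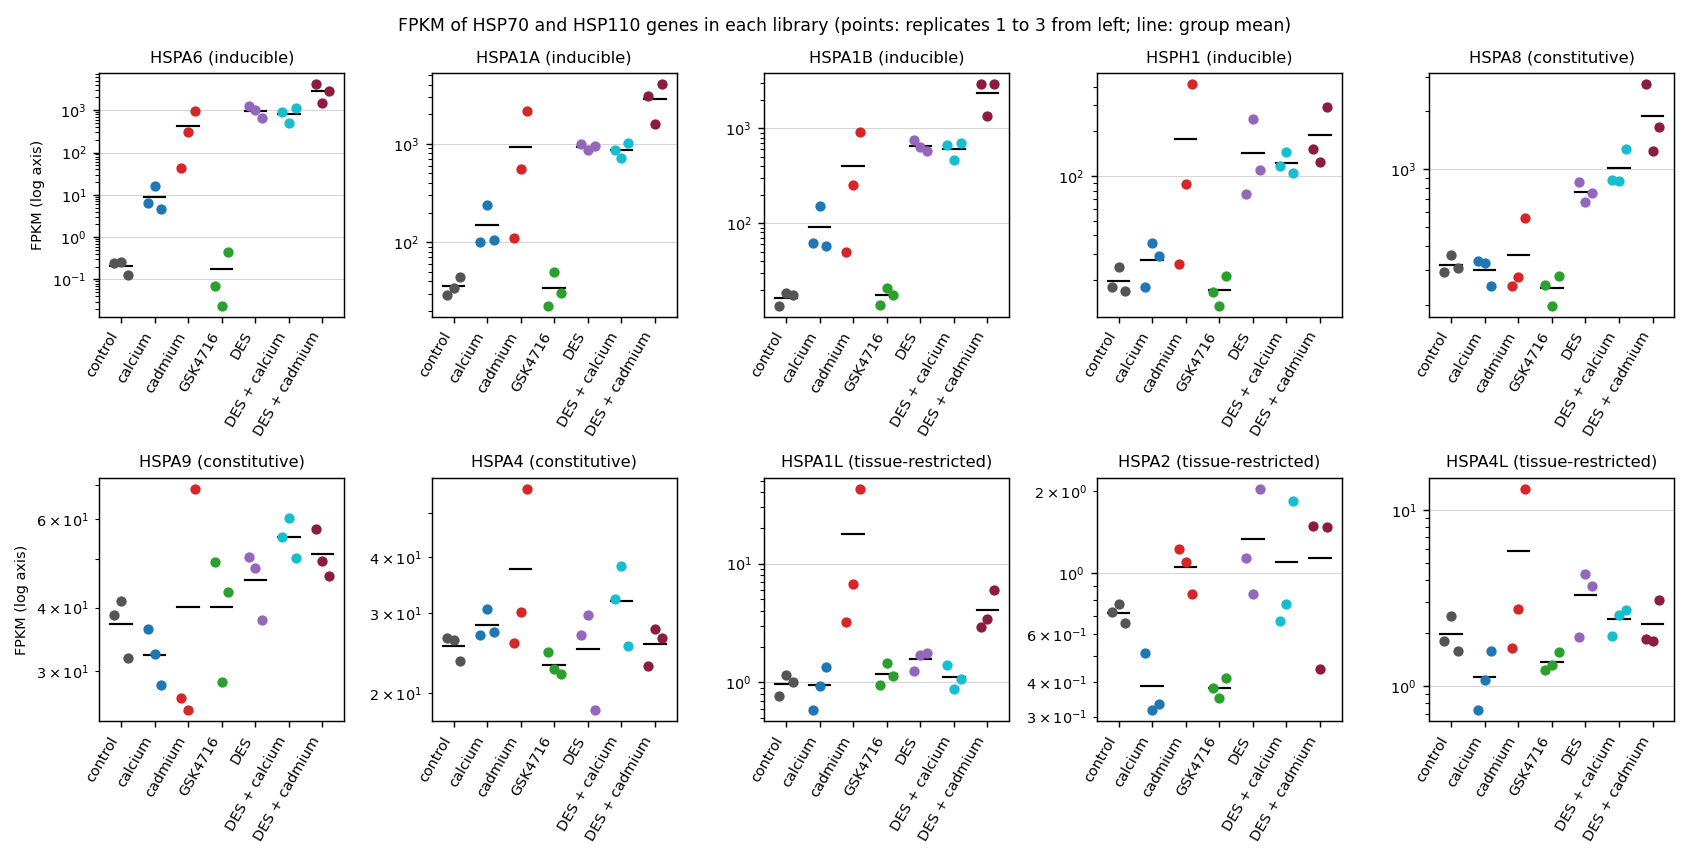
FPKM on log axes for each of the 10 members, with the 3 libraries of each of 7 groups as points and the group mean as a line. HSPA6 runs from under 1 FPKM in control and GSK4716 libraries to between 1468 and 4099 with DES and cadmium, while HSPA9 and HSPA4 stay between 18.3 and 68.9 in all 21 libraries.

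With DES alone, all 4 inducible members and the constitutive HSPA8 rose. HSPA6 was at 1262, 993 and 644 FPKM in the 3 DES libraries. HSPA1A was at 993, 858 and 956 FPKM, and HSPA1B at 761, 628 and 579.6 FPKM. Every DES library stood far above every control library for these 3 HSP70 genes, and the DES libraries lay close to each other. HSPH1, the inducible HSP110, was at 76.4, 242 and 109.8 FPKM with DES against 18.0, 24.5 and 16.9 in the control. HSPA8 was at 856, 678.5 and 751 FPKM. For both genes the groups did not overlap, and DES replicate 2 was the highest library for HSPH1 but the lowest for HSPA8.

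On the log2(FPKM + 0.1) scale, where a fold change understates that of low genes, HSPA6 rose by 11.57 (SE 0.29; adjusted p = 1.99e-05), or 3049-fold. For a gene this low in the control the fold depends on the pseudocount, and with a pseudocount of 1 HSPA6 rose by 9.59. HSPA1B rose by 5.32 (SE 0.19; adjusted p = 6.5e-05) and HSPA1A by 4.72 (SE 0.21; adjusted p = 9.02e-05), or 39.9-fold and 26.3-fold. HSPH1 rose by 2.69 (SE 0.41; adjusted p = 0.00495) and HSPA8 by 1.24 (SE 0.22; adjusted p = 0.00786), or 6.45-fold and 2.37-fold. Thus 5 of 10 members were called higher and 0 lower, where 16.7% of all genes tested were called higher and 12.9% lower. The call of HSPA8 was lost without control replicate 1 (adjusted p = 0.0558). Without the filter on low values, which adds genes to the adjustment, HSPA8 and HSPH1 lost the call (adjusted p = 0.199 and 0.0617).

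The other constitutive members differed little with DES. HSPA9 was at 50.5, 48.0 and 37.8 FPKM against 38.6, 41.2 and 31.8 in the control, and the groups overlapped (log2 difference 0.29, 95% interval -0.13 to 0.71). HSPA4, an HSP110 exchange factor, differed by -0.05 (95% interval -0.53 to 0.43). Among the tissue-restricted members none passed the test with DES. HSPA1L differed by 0.64, HSPA2 by 0.73 and HSPA4L by 0.67 on the log2 scale, with adjusted p between 0.124 and 0.184. HSPA4L passed only when DES replicate 1 was left out, with a difference of 1.01 and an adjusted p of 0.0252. In all, 7 of 10 members had every DES library above every control library, against 25.9% of all genes tested. The median log2 difference was 5.02 over the 4 inducible members, 0.29 over the 3 constitutive members and 0.05 over all genes tested.

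With calcium, 3 inducible members rose, to levels under those of every DES library. HSPA6 was at 6.56, 16.2 and 4.60 FPKM with calcium. HSPA1A was at 100.2, 241 and 105 FPKM against 29.2, 34.4 and 44.1 in the control, and HSPA1B at 62.6, 153 and 58.2 FPKM against 13.5, 18.2 and 17.5. Calcium replicate 2 was the highest library for each of the 3 genes, and the calcium and control libraries did not overlap. Every calcium library stood above every control library for 4 of 10 members, these 3 and HSPA4, against 16% of all genes tested. For HSPA4 the gap was narrow, 26.9 FPKM in calcium replicate 1 against 26.4 in control replicate 1. It depends on the library sizes behind the deposited FPKM.

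HSPA6 rose by 4.71 on the log2 scale (SE 0.50; adjusted p = 0.0109), or by 2.89 with a pseudocount of 1. HSPA1B rose by 2.33 (SE 0.39; adjusted p = 0.0262) and HSPA1A by 1.94 (SE 0.37; adjusted p = 0.0364). With calcium, 3 of 10 members were called higher and 0 lower, where 4.6% of all genes tested were called higher and 2.53% lower. Without control replicate 1 or 2 no member passed, the calls over all genes were 7 and 46 in place of 1046, and HSPA6 then differed by 4.80 and 4.83 with adjusted p of 0.0564 and 0.0588. Without control replicate 3 or calcium replicate 1 HSPA6 alone passed, and without calcium replicate 3 HSPA6 and HSPA1B. Without the filter on low values all 3 calls were lost (adjusted p = 0.0821 for HSPA6, 0.165 for HSPA1B and 0.213 for HSPA1A). HSPA1B and HSPA1A also lost the call with all 7 groups in the fit (0.052 and 0.123) and with the replicate block (0.0529 and 0.0821).

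HSPH1 was at 18.1, 35.6 and 29.1 FPKM with calcium, overlapped the control and did not pass (log2 difference 0.44, adjusted p = 0.414). None of the constitutive members passed. HSPA8 was at 336, 326 and 248 FPKM with calcium, of which replicate 3 lay below every control library and the other two among them (log2 difference -0.09, 95% interval -0.54 to 0.36). HSPA9 differed by -0.20 and HSPA4 by 0.15. Of the tissue-restricted members, HSPA2 and HSPA4L were lower in the mean without passing the test (log2 differences -0.77 and -0.78, adjusted p = 0.151 and 0.225). HSPA2 was at 0.512, 0.317 and 0.332 FPKM with calcium against 0.723, 0.770 and 0.660 in the control. Every calcium library stood below every control library for these 2 members, against 13.6% of all genes tested.

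The 3 cadmium libraries spread widely. HSPA6 was at 42.3, 300.3 and 947 FPKM with cadmium, all above the control. HSPA1A was at 111, 559 and 2130.5 FPKM, HSPA1B at 49.6, 249.9 and 911 FPKM, and HSPH1 at 25.7, 89.4 and 415 FPKM. Cadmium replicate 1 was the lowest and replicate 3 the highest library for each of these genes, and every cadmium library stood above every control library. HSPA1L, tissue-restricted, was at 3.24, 6.74 and 43.0 FPKM against 0.766, 1.15 and 0.999 in the control, in the same order of libraries.

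The log2 differences with cadmium were 9.55 for HSPA6 (SE 1.07; adjusted p = 0.0507), 3.84 for HSPA1A (SE 1.01; adjusted p = 0.0996) and 3.78 for HSPA1B (SE 0.99; adjusted p = 0.0993). They were 3.23 for HSPA1L (SE 0.90; adjusted p = 0.109) and 2.33 for HSPH1 (SE 0.95; adjusted p = 0.189). So limma called 0 of 10 members with cadmium, where it called 0.129% of all genes tested higher and 0.0204% lower, although 5 members had an unadjusted p under 0.05, as had 25.9% of all genes tested, and limma-voom on fragments called 1, HSPA6. Every cadmium library stood above every control library for 6 of 10 members, the 5 named and HSPA2, against 17.7% of all genes tested. Without cadmium replicate 1, the library with the smallest difference, these 5 members were called higher with adjusted p between 0.0145 and 0.0458, and the genes called over the whole table went from 22 to 1605, or 10.9%, of which 798 were higher. Without cadmium replicate 3 the differences were smaller, 8.53 for HSPA6, 2.81 for HSPA1A, 2.77 for HSPA1B, 2.17 for HSPA1L and 1.29 for HSPH1, with adjusted p between 0.0748 and 0.242.

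The constitutive members overlapped the control with cadmium. HSPA8 was at 249, 277 and 559 FPKM (log2 difference 0.07, adjusted p = 0.903), and its sign turned to -0.29 without cadmium replicate 3. HSPA9 was at 26.5, 25.1 and 68.9 FPKM and HSPA4 at 25.8, 30.2 and 56.6 FPKM. HSPA4L, tissue-restricted, was at 1.65, 2.73 and 13.2 FPKM. Replicate 3 was the highest cadmium library for 9 of 10 members, the exception being HSPA2, where it was the lowest.

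**Figure D2:**
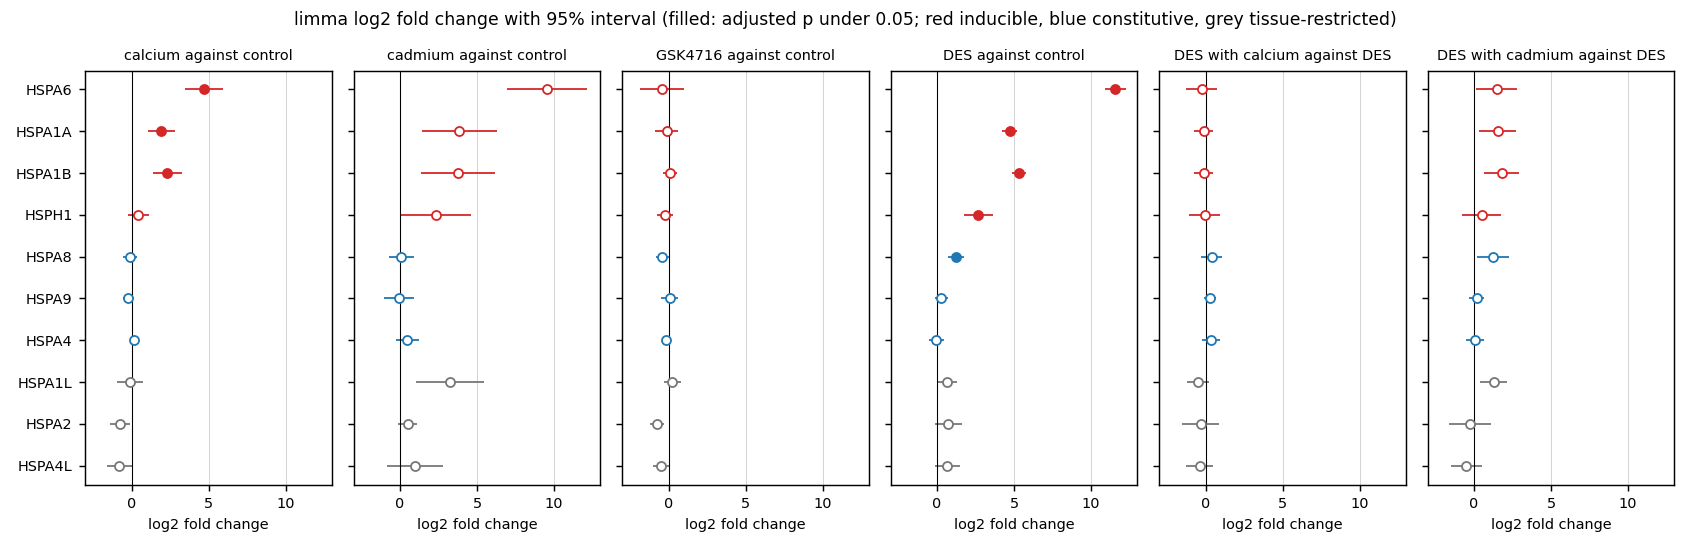
limma log2 fold changes of the 10 members in 6 comparisons, with 95% intervals as horizontal bars and filled points where the adjusted p was under 0.05. Filled points are the 3 inducible HSP70 genes with calcium and, with DES, the 4 inducible members and HSPA8, and with cadmium the intervals of the 4 inducible members are wider than in the other comparisons.

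GSK4716, the receptor agonist, left the inducible members near the control. HSPA6 was at 0.0715, 0.0238 and 0.442 FPKM, from 3, 1 and 25 fragments, and at this depth no difference could be read (log2 difference -0.44, 95% interval -1.88 to 1.01). HSPA1A was at 22.6, 49.4 and 30.7 FPKM and HSPA1B at 13.9, 20.7 and 17.7 FPKM, both overlapping the control. Their log2 differences were -0.12 (95% interval -0.88 to 0.63) and 0.08 (95% interval -0.38 to 0.54). HSPH1 differed by -0.21.

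With GSK4716, limma called 0 of 10 members and 0% of all genes tested, 1 member had an unadjusted p under 0.05, as had 16.4% of all genes tested, and limma-voom called 0 members. That member was HSPA2, at 0.382, 0.351 and 0.414 FPKM (log2 difference -0.76, adjusted p = 0.18). HSPA8 was at 251, 197 and 279 FPKM (log2 difference -0.42, adjusted p = 0.314) and HSPA4L differed by -0.47. For HSPA2, HSPA8 and HSPA4L every GSK4716 library stood below every control library, against 11.5% of all genes tested. The calcium, cadmium, GSK4716 and DES comparisons share the 3 control libraries.

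In cells that held DES, adding calcium did not move the inducible members beyond their spread. HSPA6 was at 898, 501 and 1109 FPKM with DES and calcium, which overlapped DES alone. HSPA1A was at 873, 716 and 1021 FPKM and HSPA1B at 664, 469 and 697 FPKM, again overlapping. The log2 differences from DES alone were -0.23 for HSPA6 (95% interval -1.24 to 0.77), -0.12 for HSPA1A (95% interval -0.73 to 0.50) and -0.12 for HSPA1B (95% interval -0.74 to 0.50). HSPH1 differed by -0.06.

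HSPA8 was at 882, 870.3 and 1277 FPKM with DES and calcium, each above all 3 DES libraries (log2 difference 0.39, 95% interval -0.27 to 1.05; adjusted p = 0.552). It was the single member with such a separation, which 7.84% of all genes tested had. The gap was narrow, 870.3 FPKM against 856 in DES replicate 1, and depends on the library sizes behind the deposited FPKM. HSPA9 and HSPA4 differed by 0.29 and 0.36, with adjusted p of 0.473 and 0.54. HSPA8, HSPA9 and HSPA4 were each higher in all 3 same-numbered pairs, a pattern whose share over all genes was not computed. With the replicate number as a block HSPA4 had an unadjusted p of 0.0297, and the adjusted p was 0.272 for HSPA4, 0.323 for HSPA9 and 0.499 for HSPA8. limma called 0 of 10 members here, and 0% of all genes tested higher and 0.136% lower. No member had an unadjusted p under 0.05 without the block, against 13.2% of all genes tested, and limma-voom called 0.

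DES with cadmium had the highest group mean of 5 members, the 4 inducible genes and HSPA8. HSPA6 was at 4099, 1468 and 2837 FPKM and HSPA1A at 3027, 1591 and 4023 FPKM. HSPA1B was at 2909.7, 1334 and 2901 FPKM. Replicate 2 was the lowest for these genes, and still above every library with DES alone. HSPA8 was at 2739, 1234 and 1648 FPKM, also above DES alone in every library. HSPA1L was at 2.91, 3.43 and 5.97 FPKM against 1.25, 1.70 and 1.76 with DES alone. HSPH1 was at 154, 124 and 293 FPKM and overlapped DES alone.

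None of these differences passed the test. The log2 difference from DES alone was 1.78 for HSPA1B (SE 0.47; adjusted p = 0.257), 1.52 for HSPA1A (SE 0.50; adjusted p = 0.359) and 1.47 for HSPA6 (SE 0.56; adjusted p = 0.434). It was 1.28 for HSPA1L (SE 0.36; adjusted p = 0.285) and 1.22 for HSPA8 (SE 0.44; adjusted p = 0.406). limma thus called 0 of 10 members, against 0.0272% of all genes tested called higher and 0.238% lower, while 5 members had an unadjusted p under 0.05, as had 10.4% of all genes tested, and limma-voom called 0. The same 5 members had every library with DES and cadmium above every library with DES alone, against 5.38% of all genes tested. With all 7 groups in the fit HSPA8 passed (adjusted p = 0.0311). HSPA9, HSPA4, HSPA2 and HSPA4L differed by 0.17, 0.06, -0.29 and -0.50 on the log2 scale, with intervals that included 0. The scaling of the deposited values adds 0.22 to this comparison against plain totals, and the median log2 difference over all genes tested was -0.04.

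Whether the response to a metal differed between cells without and with DES was tested as an interaction, the log2 difference with DES minus that without. For calcium it was negative for HSPA6 (-4.94, SE 0.63; adjusted p = 0.00408), HSPA1B (-2.45, SE 0.46; adjusted p = 0.019) and HSPA1A (-2.06, SE 0.43; adjusted p = 0.0296). These 3 of 10 members were called, against 2.38% of all genes tested called lower and 1.25% higher. With a pseudocount of 1 the value of HSPA6 was -3.13. HSPA6 passed whichever library was left out. HSPA1B lost the call without control replicate 1 (adjusted p = 0.0576). HSPA1B and HSPA1A also lost it without the filter on low values (adjusted p = 0.132 and 0.174) and with all 7 groups in the fit (0.215 and 0.318). HSPA1A lost it without control replicate 1 or 2, DES replicate 2 or 3, or DES with calcium replicate 1 or 2, with adjusted p of at most 0.0821. HSPH1 (-0.50, adjusted p = 0.644) and the constitutive HSPA8 (0.48, adjusted p = 0.411), HSPA9 (0.49) and HSPA4 (0.21) did not pass.

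For cadmium the interaction was called for HSPA6 alone (-8.09, SE 1.22; adjusted p = 0.0187), 1 of 10 members against 0.94% of all genes tested called lower and 0.238% higher. The call was lost without control replicate 1 or 2, cadmium replicate 2 or DES replicate 2, with adjusted p of 0.0508 to 0.0613. It was also lost without the filter (adjusted p = 0.0894) and under limma-voom (adjusted p = 0.0576). With a pseudocount of 1 the value was -6.11. Without cadmium replicate 1 HSPA1A passed too (-3.42, adjusted p = 0.0428), against -2.32 with all libraries. HSPA8 had the opposite sign (1.15, SE 0.51; adjusted p = 0.26), since its mean with cadmium was 361 FPKM against 322 in the control, and 1874 FPKM with DES and cadmium against 762 with DES.

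These interactions are differences of ratios. On the linear scale the increments with cadmium had another order for the 3 inducible HSP70 genes. The mean of HSPA6 was 429.7 FPKM higher with cadmium than in the control, and 1835 FPKM higher with DES and cadmium than with DES. For HSPA1A the increments were 898 and 1945 FPKM, and for HSPA1B 387 and 1725 FPKM. HSPA8, with a positive log2 interaction, had the same order on both scales (39.6 and 1112 FPKM). The increments without DES rested much on cadmium replicate 3. Without it they were 171 FPKM for HSPA6, 299 for HSPA1A and 133 for HSPA1B, still under those with DES. For HSPH1 the increment was 157 FPKM without DES and 47.7 FPKM with it, but 37.8 FPKM without DES when cadmium replicate 3 was left out, so that the order turned. The increment with DES itself ran from -3.76 to 80.8 FPKM with a DES with cadmium library left out, so the order is not settled. For calcium the increments without DES were 8.91 FPKM for HSPA6, 113 for HSPA1A and 74.8 for HSPA1B, and with DES the means were lower by an amount within the spread of the DES libraries.

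**Figure D3:**
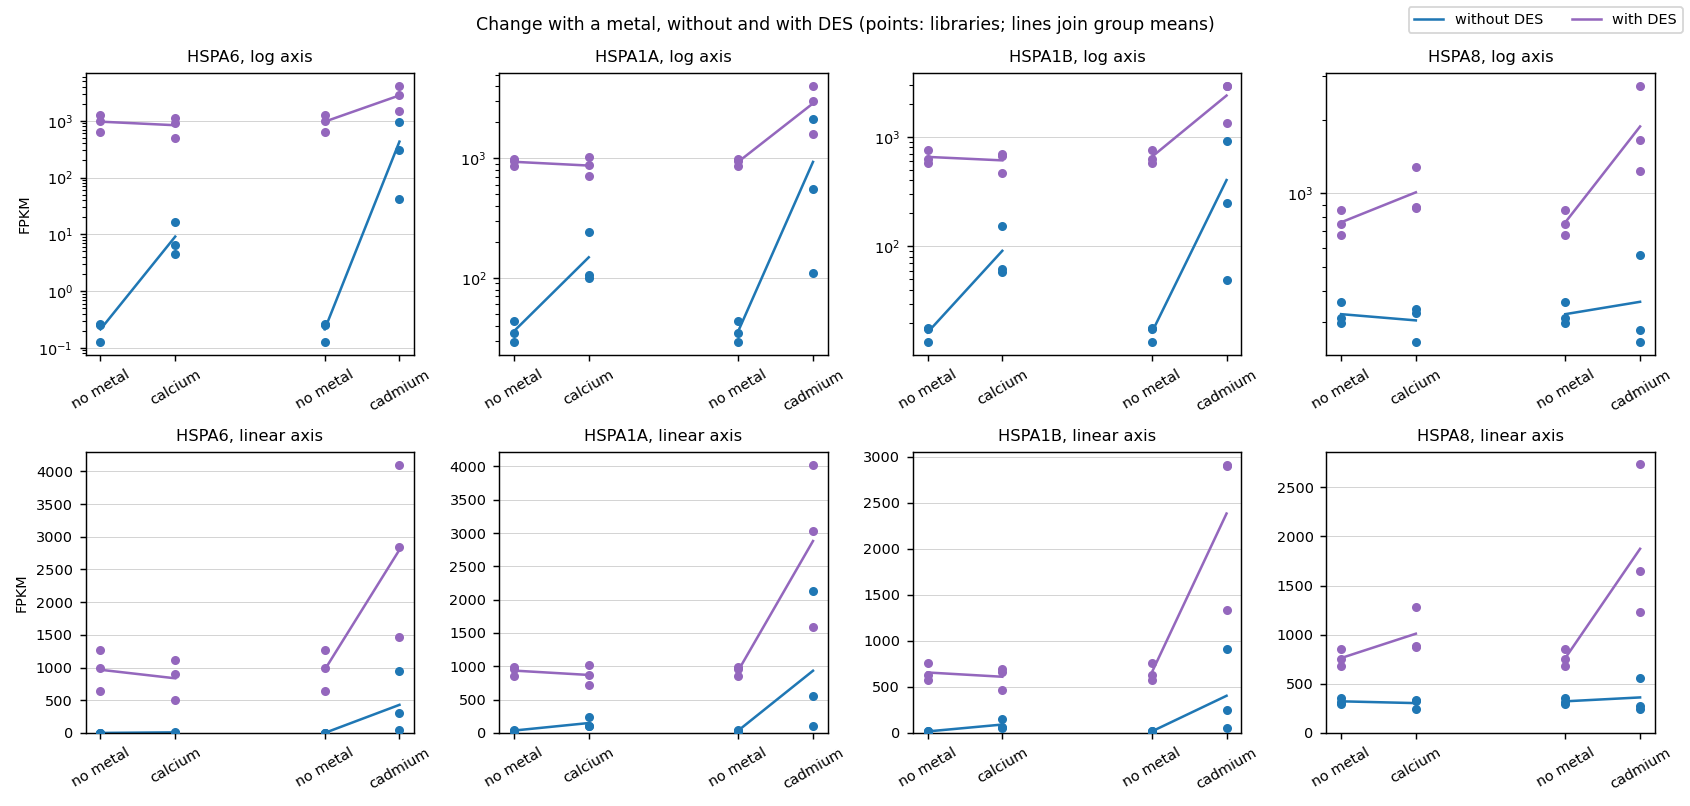
FPKM of HSPA6, HSPA1A, HSPA1B and HSPA8 without and with each metal, on log axes above and linear axes below, with libraries as points and lines joining the group means in cells without DES and with DES. On the log axes the lines with DES are the flatter for HSPA6, and on the linear axes the rise with cadmium is larger with DES (1835 against 429.7 FPKM for HSPA6).

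Ordered by group mean, the 3 inducible HSP70 genes shared their ends. GSK4716 and control were lowest and overlapped, calcium stood above both, and DES with cadmium was highest and did not overlap DES. Between these ends, cadmium, DES with calcium and DES overlapped for all 3 genes. For HSPA1A and HSPA1B the calcium libraries overlapped those with cadmium as well. At the high end, HSPA1A in cadmium replicate 3 (2130.5 FPKM) stood above DES with cadmium replicate 2 (1591 FPKM), so these groups overlapped for that gene. For HSPH1 the groups GSK4716, control and calcium overlapped at the low end, and all libraries with DES stood above them. Cadmium, whose lowest library was at 25.7 FPKM, reached into both sets. For HSPA8 the gap lay between cadmium and DES. GSK4716, calcium, control and cadmium formed an overlapping lower set. DES with calcium and DES with cadmium overlapped above DES. For HSPA9 and HSPA4 all neighbouring groups overlapped.

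The balance of the family was described by the summed FPKM of the 4 inducible members over that of the 3 constitutive members. The ratio was 0.169, 0.181 and 0.215 in the control and 0.164, 0.337 and 0.204 with GSK4716. It was 0.469, 1.15 and 0.649 with calcium and 0.760, 3.61 and 6.44 with cadmium. Control cells thus held more constitutive than inducible message, and on the FPKM scale this order was inverted in calcium replicate 2 and in cadmium replicates 2 and 3. In fragments, not divided by gene length, the ratio of calcium replicate 2 was 0.658, under 1. With DES the ratio was 3.31, 3.60 and 2.83, with DES and calcium 2.63, 1.89 and 2.17, and with DES and cadmium 3.61, 3.45 and 5.84. The means were 0.188 ± 0.0238 (SD, n = 3) in the control, 3.25 ± 0.386 with DES and 4.30 ± 1.34 with DES and cadmium. In fragments these means were 0.149, 1.79 and 2.26.

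Both sums were higher with DES. The inducible sum was 72.3 ± 9.85 FPKM in the control, 2701 ± 402 with DES and 8253 ± 3237 with DES and cadmium. The constitutive sum, most of which is HSPA8, was 384 ± 37.2, 832 ± 91.2 and 1950.2 ± 779.6 FPKM. HSPA6 made up 35.1% ± 6.45 of the inducible sum with DES, 21.7% ± 3.28 with cadmium, 3.16% ± 0.715 with calcium and 0.302% ± 0.126 in the control. All 10 members together took 0.261% ± 0.0314 of the fragments on genes in the control, 1.16% ± 0.0653 with DES and 2.60% ± 0.765 with DES and cadmium.

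**Figure D4:**
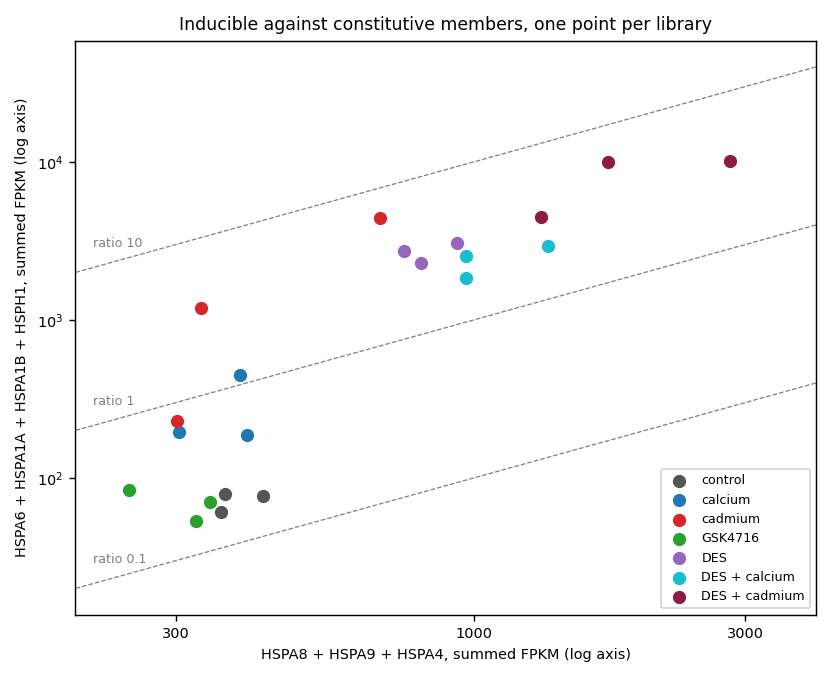
Summed FPKM of the 4 inducible members against that of the 3 constitutive members on log axes, each point a library, with dashed lines at ratios of 0.1, 1 and 10. Control and GSK4716 libraries lie between the lines of 0.1 and 1, DES libraries between those of 1 and 10, and the 3 cadmium libraries on both sides of the line of 1.

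HSPA1A and HSPA1B, neighbours on chromosome 6 (chr6:31815464-31817946 and chr6:31827735-31830255, plus strand, each a single exon), cannot be fully separated by sequence. Their coding sequences were identical at 1919 of 1923 aligned positions, or 99.8%. Of all 150-base windows of the HSPA1A transcript, 69.6% also occur in another gene, and 70.1% of those of HSPA1B. Their split is therefore uncertain, and the sum of both was tested as well. The sum rose by 4.94 on the log2 scale with DES and by 2.08 with calcium (adjusted p = 9.06e-05 and 0.0319). HSPA6 (chr1:161524540-161526910, plus strand, a single exon) shares 15.3% of its windows with HSPA7, and the other 7 members share none. HSPA6 and HSPA1A coding sequences were 80.6% identical, HSPA8 and HSPA1A 73.7%, and HSPH1 and HSPA4, both HSP110 genes, 66.7%.

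Across the 21 libraries, the members' log2 values were compared pairwise as a description, since all points share the treatments. HSPA1A and HSPA1B had r = 0.994, HSPA6 and HSPA1A r = 0.970, and HSPA1A and HSPH1 r = 0.936. HSPA8 had r between 0.776 (HSPH1) and 0.883 (HSPA1B) to the inducible members, although its log2 differences with calcium and cadmium alone were -0.09 and 0.07. HSPA1L was closest to HSPA4L (r = 0.748), both highest in cadmium replicate 3. HSPA8 and HSPA4 had r = 0.0699.

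Among 12236 genes outside the family with a mean of at least 1 FPKM, those with the pattern most like HSPA1A were DNAJB1 (r = 0.968), PARD6G-AS1 (0.967), IER5 (0.965), HSPA7 (0.955) and DUSP2 (0.946). DNAJB1 encodes the main stress-inducible J-domain partner of HSP70. For HSPH1 they were DNAJA4 (r = 0.960), BAG3 (0.948), HSP90AA1 (0.947), HSP90AA2P (0.945) and DNAJB6 (0.937). HSP90AA1 is the inducible cytosolic HSP90. For HSPA8 they were SERPINH1 (r = 0.961), HSP90AB1 (0.956), POLR2H (0.946), EMC9 (0.943) and UBB (0.941). SERPINH1 is a collagen chaperone of the endoplasmic reticulum and HSP90AB1 the constitutive cytosolic HSP90. These are correlations over 21 libraries with no test.

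The genes that act with HSP70 were followed as lists of 34 genes, of which 31 passed the filter (BAG2, HSPA12A and HSPA12B did not). With DES 17 of the 31 were called higher and 1 lower, where 16.7% of all genes tested were called higher and 12.9% lower. Of the 17, 2 were other HSP70-related genes, HSPA5 and HSPA7. HSPA7 held no fragment in the control libraries and passed the filter only through treated groups in which it was high. Its fragments also cannot be fully split from those of HSPA6. The call of HSPA7 is therefore kept in the count but not read as a rise of its own. Of 10 J-domain partners 6 rose, led by DNAJB1 (36.0 FPKM in the control and 742 with DES in the mean, log2 4.28; adjusted p = 0.000408) and DNAJA4 (log2 2.25; adjusted p = 0.00294). Of 8 nucleotide exchange factors 5 rose, led by BAG3 (log2 2.71; adjusted p = 0.00172) and BAG1 (log2 1.74; adjusted p = 0.00126), and BAG5 fell by 0.65 on the log2 scale (adjusted p = 0.0307). Of 5 other regulators HSPB1, a small heat shock protein, rose by 4.01 (adjusted p = 0.000753) and CHORDC1, a partner of HSP90, by 2.02 (adjusted p = 0.0315). HSF1, the factor behind the heat shock response, was at 35.3 ± 5.84 FPKM in the control and 53.2 ± 2.16 with DES (log2 0.60; adjusted p = 0.031), and HSF2 rose by 1.09 (adjusted p = 0.044). HSF4 differed by 0.23 and did not pass.

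**Figure D5:**
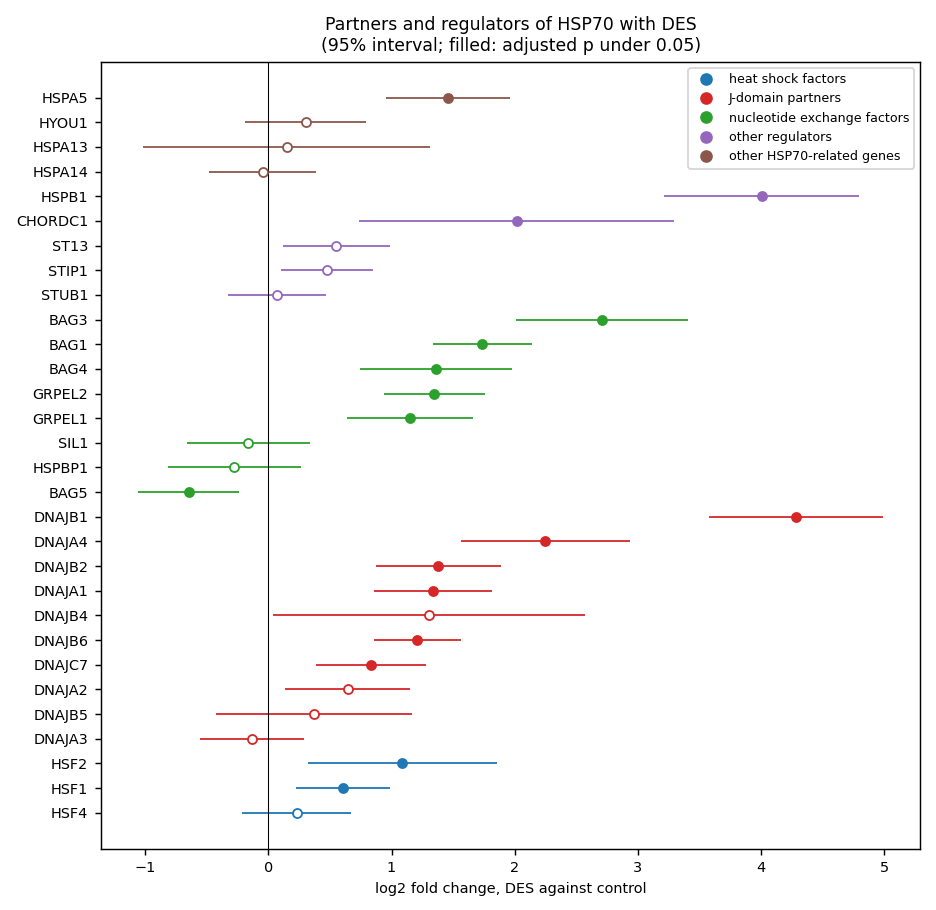
limma log2 fold changes with DES of 30 partners and regulators of HSP70, with 95% intervals, coloured by list and filled where the adjusted p was under 0.05; HSPA7 is left out because its control libraries held no fragment. DNAJB1 (4.28) and HSPB1 (4.01) are the farthest to the right, and BAG5 (-0.65) is the only filled point to the left of 0.

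With calcium 4 of the 31 rose and none fell, where 4.6% of all genes tested were called higher and 2.53% lower. HSPB1 rose by 2.99 on the log2 scale (adjusted p = 0.014), DNAJB1 by 0.94 (adjusted p = 0.0494), DNAJB2 by 0.90 (adjusted p = 0.0306) and BAG3, a co-chaperone in selective autophagy, by 0.87 (adjusted p = 0.0357). The interaction with DES was negative for HSPB1 (-3.17, adjusted p = 0.00971) and DNAJB2 (-1.40, adjusted p = 0.0189), 2 of the 31 against 2.38% of all genes tested called lower. With cadmium, GSK4716, DES with calcium and DES with cadmium, each against its own base, limma called none of the 31, with 6, 8, 3 and 3 at an unadjusted p under 0.05. Over all genes tested 25.9%, 16.4%, 13.2% and 10.4% had such a p. DNAJB1 with cadmium had a log2 difference of 2.54 (adjusted p = 0.139) and HSPB1 of 2.10 (adjusted p = 0.208). HSF1 differed from the control by 0.02 with GSK4716, 0.12 with cadmium and 0.16 with calcium. It was at 79.4 ± 11.2 FPKM with DES and cadmium (log2 difference from DES 0.57, adjusted p = 0.386).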

How the data were processed

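RNA-seq values were taken from the table the authors deposited, which gives FPKM for each gene and library. Per the submitters' processing notes and the study's methods, reads were aligned to GRCh38 with HISAT2 (version 2.0.5) and counted with featureCounts (version 1.5.0-p3). The libraries were poly-A mRNA, and their strandedness is stated in more than one way, so overlapping genes on opposite strands may share reads. The library size behind the deposited FPKM was not the plain total. It was 1.08 to 1.15 times the fragments on genes in the control libraries, 0.908 to 1.05 times with DES and 0.693 to 0.960 times with DES and cadmium. Against plain totals this raises the log2 differences of all genes by 0.18 for DES, 0.12 for calcium and 0.06 for cadmium against control, and by 0.14 and 0.22 for DES with calcium and DES with cadmium against DES.

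The deposited FPKM were whole multiples of what a fragment is worth for 100% of values (tolerance 0.01 fragments), so fragments per gene were recovered and used for depth and for limma-voom. The filter kept the 14686 genes whose FPKM averaged 0.5 or more over the 21 libraries. Differences were tested on log2(FPKM + 0.1) with limma (version 3.58.1, R 4.3.3; lmFit and eBayes with trend), two-sided, fitting the compared groups alone, and p-values were adjusted by Benjamini-Hochberg over all genes kept, with a threshold of 0.05. Adjusted p-values are from this limma test unless an alternative is named beside them. Interactions were fitted over the 4 groups concerned. The test was checked on simulated data in which every gene had the same dispersion. The wide spread of the inducible members with cadmium is not covered by that check. Motifs and sequences were read from RefSeq tables of GRCh38.p14, and identity and shared windows from GENCODE transcripts.

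Members and lists were chosen with earlier results of these data known. The text names all 10 members, HSF1, up to 3 called partner genes with the largest change in each direction per comparison, and the 5 genes most correlated with HSPA1A, HSPH1 and HSPA8. Other genes named (further partners and neighbours of members, but not the cell type markers) were chosen after their values were seen. A further marker of the cell line is not reported here.

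No pair of libraries had more than 4.97% of genes at equal fragments, so none was counted as deposited more than once. The replicate numbers in the labels are shared between groups. Deviations from the group mean correlated between same-numbered libraries at 0.132, 0.103 and 0.280 for DES with calcium and DES, and at 0.472, 0.121 and 0.313 for DES with cadmium and DES, so these were also fitted with the replicate number as a block. Elsewhere 1 or more of the correlations were under 0.1. Alternatives were another pseudocount, other filters, median-ratio scaling, all 7 groups in the fit, limma-voom, the replicate block and each library left out.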

Additional observations from a re-analysis of the deposited data

Results flagged for a closer look

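The response to a metal differed between cells without and with DES, by a test of the difference itself, for 4 combinations of member and metal. For calcium the log2 difference with DES minus that without was -4.94 for HSPA6, -2.45 for HSPA1B and -2.06 for HSPA1A (limma adjusted p = 0.00408, 0.019 and 0.0296). For cadmium it was -8.09 for HSPA6 (adjusted p = 0.0187). The means of HSPA6 were 0.212 FPKM in the control, 9.12 with calcium and 429.9 with cadmium, and 966, 836 and 2801 FPKM in the same order with DES. The baseline of these ratios, the control level of HSPA6, rests on 5 to 19 fragments per library.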

How the results depend on the processing

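With calcium, 3 members were called higher, against 0 without the filter on low values, 1 with all 7 groups in the fit, 1 with the replicate block, and 0 to 3 with a library left out. With cadmium, 0 were called, against 1 with a pseudocount of 1, 1 with a mean of at least 2 FPKM, 5 with all 7 groups, 1 with limma-voom, and 0 to 5 with a library left out. With DES, 5 were called, against 3 without the filter and 4 to 6 with a library left out. With DES and cadmium against DES, 0 were called, against 1 with all 7 groups. For the interaction of calcium with DES, 3 were called, against 1 without the filter, 1 with all 7 groups, and 1 to 3 with a library left out. For that of cadmium, 1 was called, against 0 without the filter, 0 with limma-voom, and 0 to 2 with a library left out. For GSK4716 and for DES with calcium the count was 0 under every alternative run. The replicate block changed no count of members but that with calcium. Of 604 alternative values of 40 results on single genes, 548 kept direction and side of the threshold, 38 lost the call and 16 gained it. The other 2 changed sign, both for HSPA8. With calcium its log2 difference was -0.09, and -0.17 to 0.046 with a library left out, positive without calcium replicate 3. With cadmium it was 0.07, and -0.29 to 0.29, negative without cadmium replicate 3. The ratio of inducible to constitutive members was 0.137 in the control without HSPH1 and 0.149 in fragments. It was 2.09 with DES without HSPA6 and 1.79 in fragments, 1.48 and 1.22 with DES and calcium, and 2.89 and 2.26 with DES and cadmium. Over all genes, cadmium gave 22 calls, against 1026 with all 7 groups, 463 with limma-voom and 1605 without cadmium replicate 1, and calcium gave 1046, against 30 without the filter and 260 with the block. With a library of the treated group left out, an alternative chosen after seeing the data, the FPKM increment with cadmium ran from -59.1 to 95.9 for HSPA8 without DES, and from -3.76 to 80.8 for HSPH1 with DES. The causes were not tested. Depth limits HSPA6 and HSPA7 in control and GSK4716 libraries.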

Other observations

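HSPA1L and HSPA1A start close to each other on chromosome 6 and are read in opposite directions (chr6:31809619-31815065, minus strand, and chr6:31815464-31817946, plus strand). HSPA1A was at 111, 559 and 2130.5 FPKM with cadmium and at 993, 858 and 956 FPKM with DES. HSPA1L had 3.24, 6.74 and 43.0 FPKM with cadmium but 1.25, 1.70 and 1.76 with DES. The coding sequences of HSPA1A and HSPA1L were 81.1% identical, and no 150-base window of HSPA1L occurs in another gene. This pair was chosen after its values were seen, and the difference between cadmium and DES was not tested.

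HSPA7, a close relative of HSPA6 that is usually counted as a pseudogene, had 0 fragments in each control library. It had 1, 1 and 2 fragments with calcium, 1, 101 and 258 with cadmium and 0, 1 and 2 with GSK4716. With DES it had 337, 121 and 90 fragments, with DES and calcium 80, 57 and 95, and with DES and cadmium 521, 207 and 566. HSPA6 shares 15.3% of its windows with it, so the split of fragments between both is uncertain, and no fold is given. HSPA5, the HSP70 of the endoplasmic reticulum, rose with DES from a mean of 125 to 351 FPKM (log2 1.46; limma adjusted p = 0.00443).

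The share of HSPA1B in the fragments of HSPA1A and HSPA1B together was 31.8% ± 3.09 (SD, n = 3) in the control, 30.9% ± 0.556 with cadmium, 41.5% ± 3.00 with DES and 45.9% ± 3.56 with DES and cadmium, over a range of 28.8% to 49.4% in all libraries. HSPA2 overlaps an antisense gene, AL049869.3, which had 446 fragments over all libraries against 1991 for HSPA2.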
